A study of Mus musculus with 12 samples.

Results

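Immediate early genes are transcribed within minutes of a stimulus, without new protein synthesis, from promoters already held ready by factors such as the serum response factor and CREB. Most encode transcription factors: the Fos and Jun proteins pair to form AP-1, the Egr proteins are zinc finger factors, Atf3 is a stress-induced factor of the ATF family and Myc drives growth genes. Others end the response, such as the MAP kinase phosphatase Dusp1 and the RNA-binding protein Zfp36, which speeds the decay of cytokine mRNAs. In white adipose tissue these genes respond to hormones, to feeding and to inflammatory signals, and they also react to handling of the tissue.

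The set holds 10 genes, Fos, Fosb, Jun, Junb, Egr1, Egr2, Atf3, Myc, Dusp1 and Zfp36, chosen by symbol among the 19937 genes that the arrays measured. All 10 were found, each on 1 row of the table. White adipose tissue of male mice aged 18 weeks was profiled on 12 arrays in 4 groups of 3. The groups were wild-type (WT) mice and Ahnak knockout (KO) mice fed regular chow, and WT and KO mice on a high fat diet (HFD), whose makeup was 60% fat with carbohydrate and protein at 20% each. Feeding lasted 12 weeks, and Ahnak encodes a very large scaffold protein. The labels name neither the strain, the knockout allele, the fat depot, the hour of collection nor a batch. They do not say whether the replicates are separate animals, so a p-value here speaks of the spread among these 12 samples alone, and that spread may be technical.

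Each value is a log2 intensity, so a difference of 1 is a doubling; "log2 change" below is a difference of group means ± the standard error (SE) of a limma fit to all 12 arrays, and a gene was called where its p, adjusted by Benjamini-Hochberg across all genes, was under 0.05. Ahnak itself lay at 9.94 to 10.08 in WT and 9.27 to 9.42 in KO on chow, and at 9.68 to 10.27 and 9.40 to 9.58 on HFD, lower on every KO array. Its log2 change was -0.69 ± 0.13 on chow (limma adjusted p = 0.38) and -0.52 ± 0.13 on HFD (0.021). So even the knocked-out gene was not called on chow. Arrays of a group correlated at r = 0.985 to 0.996 across genes. The adipocyte hormone Adipoq lay between 12.45 and 13.33 on all arrays. The WT arrays on HFD differed most among themselves: the macrophage integrin Itgax lay at 8.96, 11.31 and 10.61 on their replicates 1, 2 and 3, against 5.83 to 6.99 on the other 9 arrays.

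Promoter sequence was at hand for 8 of the 10 members, from RefSeq on build GRCm38.p6; Egr1 and Myc had no entry. Windows from 250 bases before to 50 bases after each start were searched on both strands for the full cyclic AMP response element TGACGTCA, the AP-1 site TGAGTCA and the CArG box, which binds the serum response factor; the motifs do not contain each other. The stretches below are shown because these members gave the calls or the lowest p-values in the comparisons that follow. They run 5′ to 3′ on the gene's strand, and capitals mark a motif.

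Egr2: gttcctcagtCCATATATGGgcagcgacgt
Zfp36: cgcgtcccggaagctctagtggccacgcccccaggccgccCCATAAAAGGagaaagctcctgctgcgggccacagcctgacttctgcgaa
Dusp1: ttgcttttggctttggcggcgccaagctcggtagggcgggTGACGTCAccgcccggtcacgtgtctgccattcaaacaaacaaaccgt
Fos: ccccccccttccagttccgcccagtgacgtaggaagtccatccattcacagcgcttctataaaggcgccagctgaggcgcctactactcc
Atf3: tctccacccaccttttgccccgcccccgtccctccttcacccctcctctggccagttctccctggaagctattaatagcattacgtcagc

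The Egr2 stretch lies at chr10:67537787-67537816 on the plus strand and its CArG box begins at position -72 from 1 of the listed starts. The Zfp36 stretch is chr7:28379237-28379326 on the minus strand, with a CArG box at -58, and that of Dusp1 is chr17:26508568-26508655 on the minus strand, with the cyclic AMP element at -143. For Fos (chr12:85473800-85473889, plus strand) and Atf3 (chr1:191183334-191183423, minus strand) the 90 bases before the start are shown, and none of the 3 motifs was found in their windows in these exact letters. The CArG box was in a window of 2 of the 8 members, against 1.81% of all genes in the table and 1.63% of all promoters, since a gene can have several. The cyclic AMP element was in 1 of 8, against 2.03% of genes and 1.79% of promoters, and the AP-1 site in 0 of 8, against 5.95% and 5.2%. A match describes letters only; no binding was measured here.

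In KO against WT on HFD the members that passed the test were Atf3, Egr2 and Fos, all lower in KO. Of the 10 members 3 were called, where 13.5% of all genes were called in either direction and 6.85% as lower in KO. The median log2 change of the members was -0.19, with 9 of 10 below 0, against 0.018 over all genes.

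Atf3, which is induced by many stresses and restrains cytokine genes in macrophages, lay at 8.62, 10.93 and 10.24 on the WT arrays on HFD and at 6.81, 7.12 and 7.34 on the KO arrays. Every WT array lay above every KO array, with a gap of 1.283 between the nearest. WT averaged 9.93 ± 1.18 (SD, n = 3) against 7.09 ± 0.27 for KO, a log2 change of -2.84 ± 0.45 or 7.15-fold (limma adjusted p = 0.0059). The KO arrays on HFD lay near those of the chow groups, which were 6.46 to 7.17 in WT and 6.43 to 6.88 in KO.

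Egr2, a zinc finger factor used by myeloid cells among others, lay at 7.12, 9.24 and 8.61 in WT on HFD and at 6.33, 6.33 and 6.45 in KO. The groups did not overlap; replicate 1 of WT stood closest to KO, as it did for Atf3. WT averaged 8.32 ± 1.09 (SD, n = 3) against 6.37 ± 0.07 for KO, and the log2 change was -1.95 ± 0.45, or 3.86-fold (limma adjusted p = 0.018).

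Fos, the partner of the Jun proteins in AP-1, lay at 7.77, 8.88 and 8.27 in WT on HFD and at 6.32, 7.48 and 6.73 in KO. The highest KO array was 0.289 below the lowest WT array. Its log2 change was -1.46 ± 0.36, or 2.76-fold (limma adjusted p = 0.023).

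The other 7 members did not pass on HFD, at adjusted p from 0.15 to 0.97. Junb, a Jun protein that also pairs with Fos, had -0.26 ± 0.11 and Myc -0.36 ± 0.17. Fosb had -0.03 ± 0.24, Jun -0.08 ± 0.15, Egr1 -0.02 ± 0.22 and Dusp1 -0.13 ± 0.20. For Egr1 the 95% interval of the difference ran from -0.49 to 0.45, which leaves room for changes of that size. Zfp36 was the member above 0 (0.13 ± 0.13): its KO arrays lay at 8.81 to 8.87 and its WT arrays at 8.66 to 8.81, apart by 0.003. Arrays of KO and WT did not overlap for 4 members on HFD, 3 lower and 1 higher in KO, where 13.5% of all genes were apart with KO lower and 17.4% with KO higher.

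**Figure D1:**
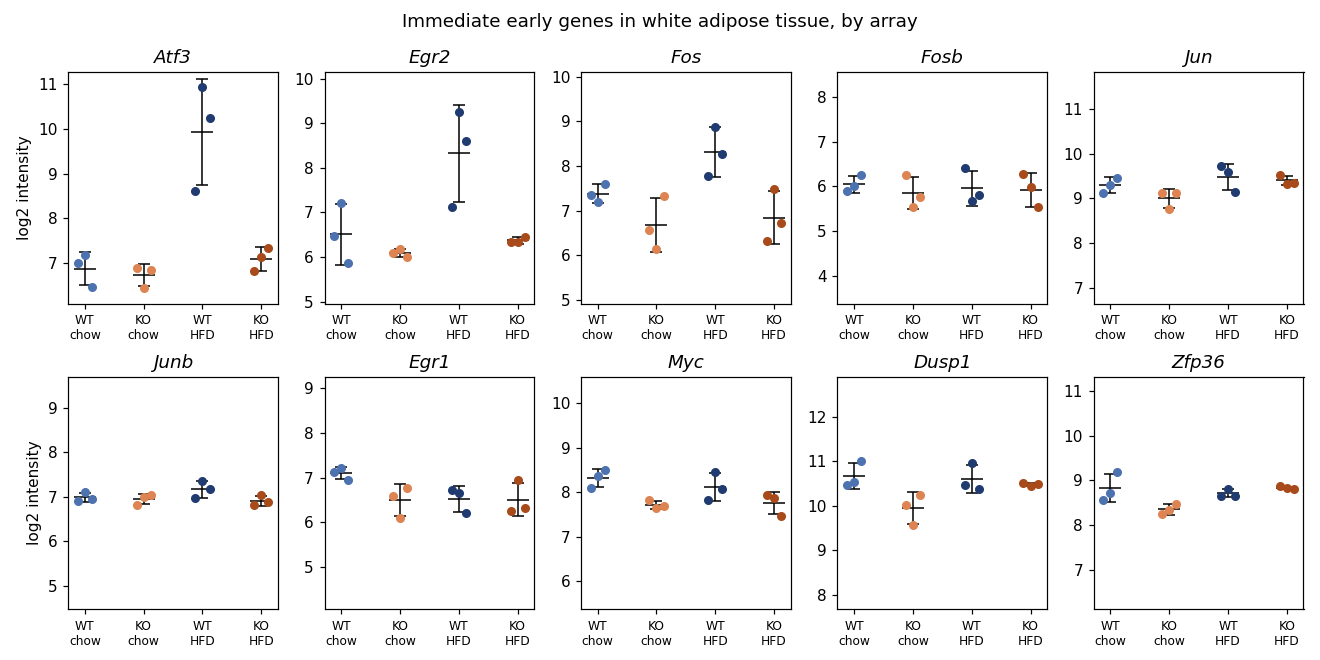
Log2 intensity of the 10 immediate early genes on each of the 12 arrays, 1 panel per gene with the same span on every vertical axis; points are arrays in replicate order, bars the group mean ± SD (n = 3). Atf3, Egr2 and Fos stand high in WT on HFD, where Atf3 reached 10.93, and the KO arrays of Atf3 on HFD stay at 6.81 to 7.34.

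The 3 calls on HFD depend on the arrays and on the spread that is pooled. Fos and Egr2 did not pass without WT HFD replicate 2 (-1.17, adjusted p = 0.088, and -1.49, 0.06), WT HFD replicate 3 (-1.48, 0.069, and -1.81, 0.07), KO HFD replicate 1 (-1.20, 0.094, and -1.93, 0.064) or KO HFD replicate 3 (-1.41, 0.074, and -1.99, 0.052), which left 1 call, Atf3. Without WT HFD replicate 1 there were 4 calls, Junb being the added one. With only the 6 HFD arrays in the fit limma called 0 members, Atf3 among them (adjusted p = 0.059), and 4 of all genes.

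Most macrophage markers moved with these 3 genes. Of the 12 markers measured, 9 were called lower in KO on HFD, 0 higher and 3 did not pass (median -0.99). The 1 marker above 0 was Cd163, with 0.28 ± 0.22 (limma adjusted p = 0.49). Their summed intensity, as a log2 value, was 14.23 to 15.37 in WT on HFD, 13.54 to 13.63 in KO on HFD, 13.49 to 13.79 in WT on chow and 13.26 to 13.58 in KO on chow. On WT HFD replicates 1, 2 and 3 it was 14.23, 15.37 and 14.94, so replicate 2 was highest and replicate 1 lowest, the order of Atf3, Egr2 and Fos. The pan-macrophage genes Adgre1 (10.03, 11.73 and 11.19) and Cd68 (11.26, 12.83 and 12.37) had the same order. Cd163 did not: it lay at 10.55, 10.02 and 9.83, highest on replicate 1. The part of macrophage content in the Atf3, Egr2 and Fos results was not tested, and in bulk tissue fewer cells of a type and less RNA per cell cannot be told apart.

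Other marker lists gave fewer calls in this comparison, where 13.5% of all genes were called. Of 8 adipocyte markers 2 were called higher in KO, 1 was lower and 5 did not pass. Adipoq lay at 13.13, 12.45 and 12.99 in WT on HFD and 13.23 to 13.33 in KO. Of 5 B cell markers 2 were called lower, of 6 mast cell and granulocyte markers 1 was lower, of 6 stromal progenitor markers 1 was lower, and of 6 endothelial markers 1 was higher. Of 6 T cell, 5 smooth muscle, 5 mesothelial, 5 skeletal muscle, 5 male tract epithelium and 2 red blood cell markers 0 were called in this comparison. The T cell gene Cd3e had a log2 change of 0.04 ± 0.13 and the endothelial gene Pecam1 0.23 ± 0.20.

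**Figure D2:**
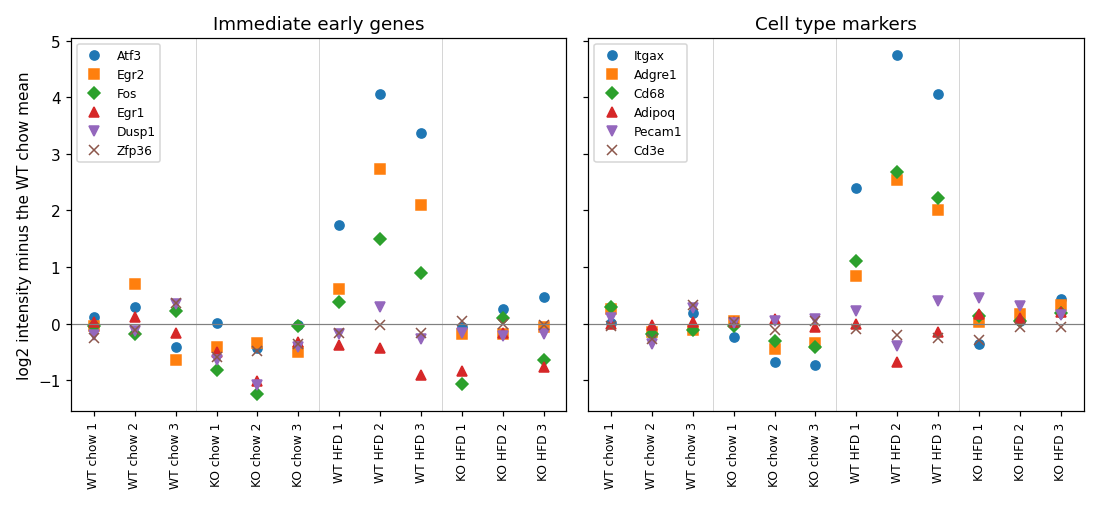
Log2 intensity of 6 immediate early genes (left) and 6 cell type markers (right) on each array, as the difference from the gene's mean in WT on chow. On the WT HFD arrays Atf3, Egr2 and Fos, and the macrophage genes Itgax, Adgre1 and Cd68, are all highest on replicate 2 and lowest on replicate 1; Adipoq is lowest on replicate 2.

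HFD against chow in WT raised Atf3 and Egr2. They were the 2 of 10 members called, both higher on HFD, where 24.1% of all genes were called and 11.8% as higher. This comparison uses the same 3 WT HFD arrays as the one above, so they are not independent. The members' median log2 change was 0.06, with 5 below 0 and 5 above, against -0.027 over all genes.

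From 6.99, 7.17 and 6.46 on chow, Atf3 rose by 3.06 ± 0.45, or 8.32-fold (limma adjusted p = 0.0015), and kept its call under each of the 20 alternatives tried, at adjusted p up to 0.018. Egr2, at 6.46, 7.21 and 5.86 on chow, rose by 1.81 ± 0.45, or 3.5-fold (limma adjusted p = 0.014). Its WT arrays on the diets touched, since the highest on chow (7.21) lay above the lowest on HFD (7.12). The Egr2 call was lost without WT chow replicate 3 (1.48, adjusted p = 0.057), without WT HFD replicate 3 (1.67, 0.055) and when the 6 WT arrays alone were fitted (1.81, 0.077).

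Fos lay higher on every WT array on HFD than on chow (7.19 to 7.60) but did not pass, with 0.93 ± 0.36 (limma adjusted p = 0.087); without WT HFD replicate 1 it did (1.20, 0.036). Egr1, the serum-induced relative of Egr2, went the other way: it lay at 7.13, 7.22 and 6.94 on chow and 6.73, 6.66 and 6.20 on HFD, a log2 change of -0.57 ± 0.22 that did not pass (limma adjusted p = 0.082). WT arrays on the diets were apart for 3 members, Fos and Atf3 higher and Egr1 lower on HFD, where 17.3% of all genes were apart upward and 21.6% downward. Egr1 and Egr2 thus had opposite signs within the same 6 arrays. The remaining 6 members had -0.20 to 0.19, at adjusted p from 0.28 to 0.86. Several marker lists moved with diet in WT. Of the 12 macrophage markers 10 were called higher on HFD and 2 did not pass, Cd163 among them with -0.49 ± 0.22. Of the 5 markers listed for male tract epithelium 4 were lower (Cdh1, Epcam, Krt8 and Krt18) and 1 did not pass (median -1.61). The epithelial adhesion gene Epcam had -3.46 ± 0.60. Defb42, the one that did not pass, lay at 4.09 to 4.20 on chow and 4.05 to 4.15 on HFD (-0.03 ± 0.09). The summed level of the 5 lay at 10.58 to 11.65 on chow and 8.76 to 9.66 on HFD. Both red blood cell markers were lower (median -1.06), with sums of 9.59 to 9.76 on chow and 8.06 to 8.82 on HFD. Of 8 adipocyte markers 1 was higher and 2 were lower. In the B cell (5 measured), stromal progenitor (6) and mast cell and granulocyte (6) lists 1 marker each was higher. Beside these, 24.1% of all genes were called, so 1 call in a list of 5 or 6 says little. The part of these shifts in the Atf3 and Egr2 results was not tested.

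On chow no member passed in KO against WT, and 0.0% of all genes did. All 10 members had a log2 change below 0, with a median of -0.45 against 0.009 over all genes. By limma 4 members had an unadjusted p under 0.05, Dusp1, Zfp36, Myc and Egr1, where 5.6% of all genes did; for the same 4 every KO array lay below every WT array, where 5.74% of all genes were so placed. These are not the members called on HFD.

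Dusp1, which switches off MAP kinases, lay at 10.46, 10.53 and 11.00 in WT and 10.02, 9.57 and 10.25 in KO on chow. The groups were apart by 0.207, and the log2 change was -0.72 ± 0.20 (limma adjusted p = 0.68). Zfp36, the mRNA decay factor, lay at 8.57, 8.71 and 9.19 in WT and 8.24, 8.34 and 8.47 in KO, with -0.48 ± 0.13 (adjusted p = 0.68). For both, replicate 3 of WT was the highest of the 6 chow arrays.

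Myc lay at 8.09, 8.37 and 8.49 in WT and 7.82, 7.64 and 7.69 in KO, a log2 change of -0.60 ± 0.17 (limma adjusted p = 0.68). Egr1 lay at 6.60, 6.09 and 6.78 in KO against 6.94 to 7.22 in WT, with -0.60 ± 0.22 (adjusted p = 0.8). In Fos the groups overlapped, since KO replicate 3 (7.33) lay within the WT range of 7.19 to 7.60, and its change was -0.70 ± 0.36. Jun had -0.29 ± 0.15, Egr2 -0.42 ± 0.45, Fosb -0.19 ± 0.24, Atf3 -0.16 ± 0.45 and Junb -0.04 ± 0.11. For Atf3 the 95% interval on chow ran from -1.14 to 0.83. Single arrays moved some of these values by over 1.5 times: Zfp36 had -0.30 without WT chow replicate 3, and without KO chow replicate 2 Fos had -0.43 and Jun -0.17. With each array left out in turn Egr1 ran from -0.75 to -0.41, Dusp1 from -0.87 to -0.53 and Myc from -0.71 to -0.51, and the less precise Egr2 from -0.75 to -0.07, Fosb from -0.39 to -0.04 and Atf3 from -0.36 to -0.01.

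Marker lists gave 0 calls in KO against WT on chow, where 0.0% of all genes were called. The macrophage list had a median of -0.23 and summed levels that overlapped between WT (13.49 to 13.79) and KO (13.26 to 13.58). The summed B cell markers lay at 7.82 to 8.04 in WT and 7.56 to 7.62 in KO, and the T cell markers at 8.84 to 9.23 and 8.63 to 8.71, both apart between the genotypes as Dusp1, Zfp36, Myc and Egr1 were; the 2 red blood cell markers lay at 9.59 to 9.76 and 9.03 to 9.21. By limma 3 of 5 B cell, 2 of 2 red blood cell and 1 of 8 adipocyte markers had an unadjusted p under 0.05, each lower in KO. Of all genes 5.6% had such a p, and of the 12 macrophage markers 0 did. All 6 T cell markers lay below 0 (median -0.23), 0 of them at an unadjusted p under 0.05 by limma. Cd3e had only -0.02 ± 0.13, with arrays at 6.23 to 6.83 in WT and 6.39 to 6.55 in KO. The part of these markers in the chow differences was not tested.

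HFD against chow in KO gave 0 calls among the members, where 6.34% of all genes were called. The median was 0.22 against -0.008 over all genes, and 9 of 10 members were above 0. By limma Zfp36, Dusp1 and Jun had an unadjusted p under 0.05, as did 4547 of all 19937 genes. Zfp36 lay at 8.24 to 8.47 on chow and 8.81 to 8.87 on HFD, a log2 change of 0.49 ± 0.13 (adjusted p = 0.055, from 0.018 to 0.16 over the alternatives, and called without WT chow replicate 1 or 3). Dusp1 lay at 9.57 to 10.25 and 10.44 to 10.50 (0.53 ± 0.20), and Jun at 8.75 to 9.12 and 9.33 to 9.52 (0.40 ± 0.15). Arrays were also apart for Egr2, at 6.01 to 6.17 and 6.33 to 6.45 (0.28 ± 0.45), so 4 members were apart with HFD higher, where 15.1% of all genes were. Atf3 had 0.37 ± 0.45 in KO and Fos 0.16 ± 0.36. Of the 5 markers listed for male tract epithelium 4 were lower on HFD in KO too (median -1.54), Epcam with -2.84 ± 0.60. Defb42 again did not pass (-0.28 ± 0.09), and the summed level of the 5 lay at 10.64 to 11.70 on chow and 8.77 to 10.30 on HFD. By limma 0 of the 12 macrophage markers and 0 of the 2 red blood cell markers were called, also 0 of them at an unadjusted p under 0.05, and 1 of 8 adipocyte markers was higher. The part of these markers in the Zfp36, Dusp1 and Jun values was not tested.

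**Figure D3:**
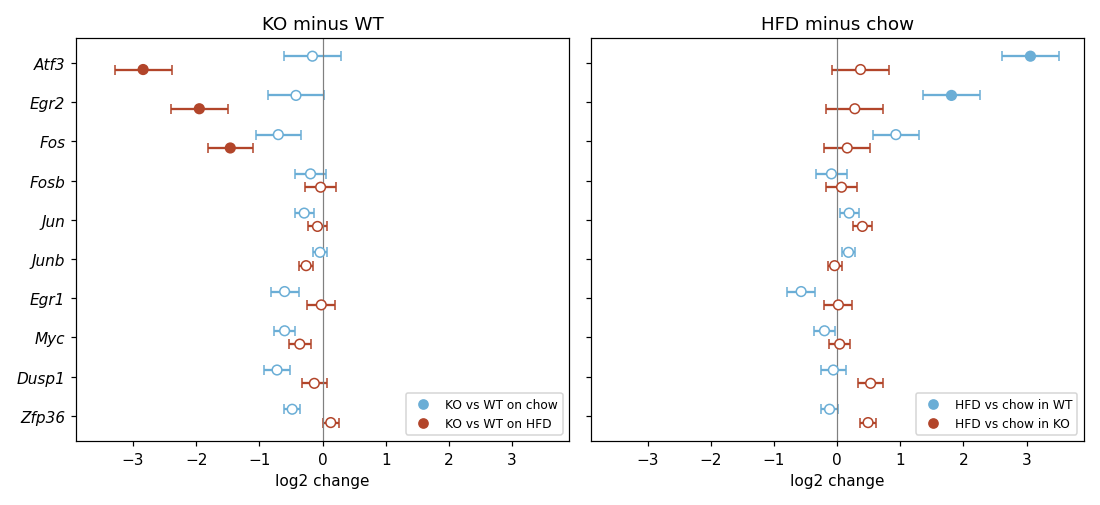
Log2 change of each immediate early gene with its SE for KO minus WT on each diet (left) and HFD minus chow in each genotype (right); filled points passed at an adjusted p under 0.05. Filled points are Atf3, Egr2 and Fos for KO against WT on HFD (-2.84, -1.95 and -1.46) and Atf3 and Egr2 for HFD in WT (3.06 and 1.81). The panels share arrays, so left and right are not independent.

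The interaction of genotype and diet, which asks whether the KO difference itself differs between diets, called 0 of 10 members by limma and 0.00502% of all genes, that is 1 gene. By limma 3 members had an unadjusted p under 0.05, as did 3496 of all 19937 genes. Atf3 had -2.68 ± 0.64 (adjusted p = 0.097), Egr2 -1.53 ± 0.63 (0.25) and Zfp36 0.60 ± 0.19 (0.15). So the Atf3 and Egr2 differences passed on HFD and not on chow, and their difference between diets did not pass. Without WT HFD replicate 1 the interaction of both was called (-3.34, adjusted p = 0.00052, and -2.13, 0.0091). Fos had -0.76 ± 0.51 and Dusp1 0.59 ± 0.28.

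Ordered by group mean, Atf3, Egr2, Fos, Jun and Junb were highest in WT on HFD, Fosb, Egr1, Myc and Dusp1 in WT on chow, and Zfp36 in KO on HFD. The lowest mean was that of KO on chow for every member but Junb, which was lowest in KO on HFD. For Atf3 the step from WT on HFD down to KO on HFD was without overlap, and the other 3 groups overlapped their neighbours in the order. For Fosb, Jun, Junb and Myc all 3 neighbouring pairs overlapped.

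Across the 12 arrays the members fell into unlike patterns. Egr2 and Atf3 correlated at r = 0.96, Dusp1 and Zfp36 at 0.84, Fos and Atf3 at 0.82, and Jun and Dusp1 at 0.78, whereas Fosb and Junb had -0.41. These describe 12 arrays that share the 4 groups. The genes closest to Atf3 were Plekho2, Atp6v1b2 and Slamf8 (each 0.99), and those closest to Egr2 were Cbfb (0.99), Ncapg2 (0.98) and Ywhaz (0.97). The closest to Fos were Pign (0.94), Kcnk6 and Atp6ap1 (both 0.93), and to Junb Hmga2 (0.96), Card19 (0.95) and Rap2a (0.93).

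The members that stood apart on chow had other neighbours, as did Jun and Fosb, which did not stand apart there. Zfp36 was closest to Tnfaip3 (0.96), Ifi203 (0.87) and Malat1 (0.86), Myc to Sgk1 (0.93), Lyst (0.86) and Ikbkb (0.84), and Dusp1 to Rac3 (0.90), Man2a1 (0.89) and Ms4a6b (0.88). Jun was closest to Tas2r116 (0.87), Ppp1r15a and Rassf1 (both 0.86), Egr1 to Igfl3 (0.85), Slc39a9 (0.84) and Krt74 (0.83), and Fosb to Chd8 (0.89), Prpf8 (0.81) and Rasal2 (0.79).

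A wider list of 40 other immediate early and rapid response genes was measured in full. For KO against WT on HFD 2 of them were lower, 1 was higher and 37 did not pass (median -0.06). The 3 calls among 40 are a smaller share than the 13.5% of all genes called there. Gadd45b, a stress-induced growth arrest gene, lay at 8.94, 9.66 and 9.27 in WT and 8.26, 8.32 and 7.93 in KO (-1.12 ± 0.19, limma adjusted p = 0.0064). Maff, a small Maf factor that pairs with AP-1 proteins, lay at 6.32, 6.51 and 6.42 in WT and 5.62 to 5.86 in KO (-0.70 ± 0.13, 0.0081). Id1, an inhibitor of helix-loop-helix factors, was higher in KO (0.52 ± 0.15, 0.037), and the phosphatase Dusp5 did not pass (-0.41 ± 0.14, 0.081).

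For HFD against chow in WT 5 of the 40 were higher, 3 were lower and 32 did not pass, a share near the 24.1% of all genes called. Higher were Gadd45b (1.27 ± 0.19), Maff (0.69 ± 0.13), Klf10 (0.60 ± 0.15), Ier5 (0.84 ± 0.23) and Klf6 (0.31 ± 0.08); lower were Rhob (-0.52 ± 0.10), Id1 (-0.54 ± 0.15) and Nfkbia, the inhibitor of NF-kB (-0.68 ± 0.18). In KO, HFD raised Klf6 (0.37 ± 0.08) and Tnfaip3 (0.42 ± 0.10), lowered Dusp4 (-1.08 ± 0.28) and left 37 without a call, beside 6.34% of all genes called. Klf6 was thus called for diet in both genotypes.

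For KO against WT on chow 0 of the 40 passed, 11 had an unadjusted p under 0.05 and 30 lay below 0 (median -0.12). Of all genes 0.0% passed and 5.6% had an unadjusted p under 0.05 by limma. The smallest p-values were those of the GTPase Rhob (-0.52 ± 0.10, limma adjusted p = 0.38), Tnfaip3, which restrains NF-kB (-0.40 ± 0.10, 0.61), Dusp4 (0.94 ± 0.28, 0.74) and Btg1 (-0.38 ± 0.11, 0.74).

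**Figure D4:**
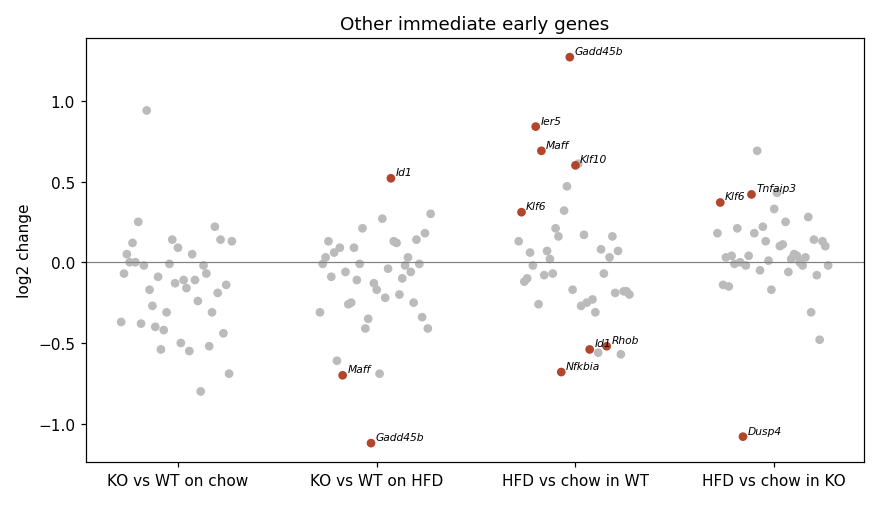
Log2 change of the 40 other immediate early genes in each comparison; each point is a gene, spread sideways only for legibility, and named points in red passed at an adjusted p under 0.05. The called genes number 0 for KO against WT on chow, 3 on HFD, 8 for HFD in WT and 3 for HFD in KO.

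Genes that act upstream of the early response had calls at a share near that of all genes: 3 of 18 for KO against WT on HFD, beside 13.5% of all genes, and 4 of 18 for HFD in WT, beside 24.1%. Of the 18 kinases and factors measured (of 24 listed), Map3k8, a MAP kinase kinase kinase, was lower in KO on HFD (-0.55 ± 0.11, limma adjusted p = 0.011), as was Mrtfa, a coactivator of the serum response factor (-0.55 ± 0.15, 0.033), and Elk1, a ternary complex factor at CArG boxes, was higher (0.44 ± 0.12, 0.03). Mrtfb, a relative of Mrtfa, had -0.51 ± 0.18 (0.08), and 15 did not pass. In WT, HFD raised 4 of the 18, Map3k8 (0.69 ± 0.11) and Mrtfa (0.56 ± 0.15) among them.

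Of 15 AP-1 and ATF partners measured (of 16 listed), Batf, a partner of Jun proteins in immune cells, was lower in KO on HFD (-0.50 ± 0.12, limma adjusted p = 0.022) and 14 did not pass, where 13.5% of all genes were called; among the 14 were Atf7 (0.16 ± 0.06, 0.092), Batf3 (-0.26 ± 0.10, 0.1) and Atf5 (0.23 ± 0.11, 0.19). HFD in WT raised Batf, Mafk and Ddit3 and lowered Maf, Mafg and Cebpd, 6 of 15 beside 24.1% of all genes. Of the 10 genes of the Myc network 0 were called for KO against WT on HFD; Mycl had 0.98 ± 0.30 (adjusted p = 0.053). Of 11 heat shock genes measured (of 14 listed) the cochaperone Bag3 was lower in KO on HFD (-0.32 ± 0.09, 0.035) and 10 did not pass, the chaperone Hspb8 with 0.64 ± 0.21 (0.066) among them.

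The list of Egr corepressors and genes known as Egr targets had calls for most of its members. It was chosen with earlier results of these data known, so its share of calls is a description and no independent evidence. Egr activity was not measured. Of 9 measured (of 10 listed) 6 were lower in KO on HFD, 1 was higher and 2 did not pass (median -0.80), beside 13.5% of all genes called. Nab2, a corepressor that Egr proteins induce, lay at 9.29, 9.68 and 9.27 in WT and 8.65, 8.43 and 8.76 in KO (-0.80 ± 0.14, limma adjusted p = 0.0067). Cd44, a matrix receptor (-1.66 ± 0.26, 0.0059), Timp1, an inhibitor of metalloproteinases (-2.45 ± 0.45, 0.0079), and the adhesion molecule Icam1 (-0.53 ± 0.10, 0.0091) were lower too. Ndrg1 was the 1 called higher (0.74 ± 0.18, 0.021). HFD in WT raised 7 of the 9 and lowered 1, beside 24.1% of all genes called, and in KO limma called 0 for HFD, with 1 at an unadjusted p under 0.05. Immune cells also express several of these genes, and most macrophage markers moved in the same comparisons. Their part was not tested.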

How the data were processed

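White adipose tissue RNA of 12 samples was measured on 1-colour Affymetrix arrays. The authors deposited 34760 rows of log2 intensities, 1 column per sample; per the submitters' processing notes the tool was affy, and how background and arrays were corrected is not stated in any label or header. The log2 base was read from the values (2.09 to 14.2); array medians lay between 5.78 and 5.92. The precision is limited by the 3 arrays a group.

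Rows were named through the platform annotation: 21640 had 1 symbol, 1321 several and 11799 none, and 21553 matched RefSeq by Entrez identifier. The row with the highest mean stood for a gene, which left 19937. A mean per group was fitted with limma 3.58.1 in R 4.3.3 with eBayes (8 residual degrees of freedom) and no filter; tests were two-sided. The script was tested on simulated data. The members and gene lists were chosen with earlier results of these data known. Named genes are the members, up to 4 of each list with the smallest p in KO against WT on HFD (for the other early genes also on chow), defining cell type markers and the 3 genes with the highest Pearson r to each member, without predicted genes, smell and pheromone receptors and small RNAs. Genes of the lists named for a call, or for missing one, in a diet comparison were chosen after their values were seen. So were Cd163 and Ndrg1, named because their sign was opposite to that of most of their lists. Alternatives were quantile normalization, subtracted array medians, dim genes left out, only the compared groups, a variance trend with robust settings, array weights, the mean of a gene's rows, a replicate block and each array left out.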

Additional observations from a re-analysis of the deposited data

Results flagged for a closer look

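On chow all 3 KO arrays of Zfp36 lay below all 3 WT arrays (-0.48 ± 0.13), and on HFD all 3 lay above them (0.13 ± 0.13). The 95% interval of the HFD difference, -0.17 to 0.42, spans 0. The KO arrays lay higher on HFD (8.81 to 8.87) than on chow (8.24 to 8.47). The WT arrays overlapped between the diets, at 8.66 to 8.81 on HFD and 8.57 to 9.19 on chow. The difference between the diets was 0.60 ± 0.19 and did not pass (limma adjusted p = 0.15, from 0.038 to 0.29 over the alternatives). On HFD the nearest KO and WT arrays were only 0.003 apart.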

How the results depend on the processing

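Of 980 values of single members under alternatives, 906 kept direction and side of the threshold, 14 lost a call, 21 gained one and 39 changed sign; none of the last had a called main value. The count of called members for KO against WT on HFD (3) was 0 with only the compared groups, 5 with array weights and 1 to 4 with each array left out. For HFD in WT (2) it was 1, 5 and 1 to 3. For HFD in KO (0) it was 1, Zfp36, with array medians subtracted, dim genes left out, only the compared groups, trend and robust settings or array weights, and 0 to 1 with each array left out. For the interaction (0) it was 4 with array weights and 0 to 2 with each array left out. On chow it was 0 in every setting. The array weights did not converge and gave WT HFD replicate 3 a weight of 19.99 against 0.38 to 1.68 for the others, so the WT HFD means in that setting rest mainly on 1 array.

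With the replicate block the counts were 0 and 3 for KO against WT on chow and HFD, 2 and 0 for HFD in WT and KO, and 0 for the interaction, so the block changed no count. Same-numbered arrays deviated together (r over 0.1) in 4 of 18 pairs (-0.41 to 0.38). Between KO on chow and KO on HFD, r was 0.38, 0.25 and -0.27 for replicates 1, 2 and 3. Arrays with different numbers were not compared, so this check cannot settle whether the numbers pair the samples.

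The sign changes were of values near 0. With array weights KO against WT on HFD was 0.01 for Fosb, 0.22 for Jun, 0.27 for Egr1 and 0.08 for Dusp1; HFD in WT was -0.07 for Jun; HFD in KO was -0.03 for Fosb, -0.02 for Egr1 and -0.02 for Myc. With quantile normalization HFD in WT was 0.02 for Fosb and HFD in KO 0.01 for Junb; with medians subtracted they were 0.00 for Dusp1 and 0.03 for Junb. With each array left out the ranges were, for KO against WT, -0.09 to 0.03 (Junb, chow), and on HFD -0.21 to 0.19 (Fosb), -0.25 to 0.04 (Jun), -0.23 to 0.10 (Egr1) and -0.24 to 0.05 (Dusp1). For HFD in WT they were -0.31 to 0.06 (Fosb), -0.24 to 0.10 (Dusp1) and -0.24 to 0.06 (Zfp36). For HFD in KO they were -0.15 to 0.49 (Fos), -0.10 to 0.28 (Fosb), -0.11 to 0.01 (Junb), -0.19 to 0.16 (Egr1) and -0.05 to 0.19 (Myc), and for the Fosb interaction -0.01 to 0.38. Where not stated, the cause was not tested. Detection calls were not used here, so no member could be set against background; Fosb and Egr1 were among the dim genes left out.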
